A study of Arabidopsis thaliana with 24 samples.

Results

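The shoot response of Arabidopsis thaliana seedlings to 2 h of osmotic shock was described across all genes by setting 3 shoot libraries from polyethylene glycol (PEG) against 3 shoot libraries from water. These 6 libraries, out of 24 in the series, were chosen by their sample descriptions and source names. All seedlings carried the genotype that the labels spell ulox or µlox without defining it, and no wild type was among the libraries analysed. They were 7 d old and had grown under white light, 16 h on and 8 h off, at 21 °C on medium with 1% sucrose.

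The PEG 2 h group stood for 2 h in 30% PEG, an osmotic agent too large to enter cells that withholds water (-2.0 MPa), and the water group stood in water for 1 h. Shoots after 1 h and 3 h of PEG, and roots after 2 h of PEG and 1 h of water, serve below only to place the 2 h shoot values. Each group has 3 biological replicates (A, B and C) of 30 to 50 seedlings, whose roots and shoots were separated after treatment. Library preparation followed MARS-seq, in which transcripts are tagged at their 3′ ends. The only water samples carry 1 h in their source names and a time code of 0 in their titles. In both readings the 2 h PEG samples had a longer soak than the water samples, and PEG cannot be told apart from that difference. The labels used here give no hour of harvest, so PEG also cannot be told apart from any difference in the hour of the day.

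Plants sense loss of water largely through the hormone abscisic acid (ABA). ABA binds receptors of the PYR/PYL family, which then hold back clade A protein phosphatases 2C (PP2C), and this frees SnRK2 kinases to activate ABF transcription factors. A partly separate branch runs through DREB factors, and together they switch on genes for proteins and solutes that protect drying cells, while growth genes are turned down. Sulfur assimilation, starch breakdown and the circadian clock are further systems known to respond in leaves under drought.

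The 3 PEG 2 h shoot libraries hold 6090852, 2946978 and 2976465 counts, and the 3 water libraries 2530789, 1692884 and 3257951. A separate tissue field of the labels reads root for every sample, so the tissue was checked. The Rubisco small subunit gene RBCS1A averaged 28668 ± 4643 CPM in PEG 2 h and 31187 ± 607 CPM in water (SD, n = 3 each), and 161 CPM in root water. The light-harvesting gene CAB3 averaged 12031 ± 1576 CPM in PEG 2 h and 13575 ± 2132 CPM in water, against 13.3 CPM in root water. CASP1, a Casparian strip gene of the root, was found at 4.74, 4.73 and 5.37 CPM in the PEG 2 h libraries, against 5.96, 4.14 and 6.70 CPM in the water libraries, with a mean of 451 CPM in root water. Its relative CASP4 had 0 counts in all 6 shoot libraries, and the endodermal regulator MYB36 had 0 in PEG 2 h and 1 in water. Both were also too low to be tested in the fit of all 24 libraries, so they do not tell the tissues apart. The root marker SCR hardly did, at 7.80 ± 0.847 CPM in PEG 2 h, 10.4 ± 4.95 CPM in water and 15.3 CPM in root water. Levels are in CPM, counts scaled to a common library size by trimmed means (TMM). Changes are log2 fold changes, PEG 2 h over water, with standard errors (SE) and Benjamini-Hochberg adjusted p from edgeR's quasi-likelihood test over 12 shoot libraries, and a gene is called at an adjusted p under 0.05. In whole shoots, fewer cells of a type and less RNA per cell cannot be told apart.

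After 2 h of PEG, 987 of the 9207 genes tested (10.7%) had changed, 673 (7.31%) upward and 314 (3.41%) downward. Large changes ran mostly upward. Of the genes that rose, 455 did so by at least 2-fold, 147 by at least 4-fold, 55 by at least 8-fold and 17 by at least 16-fold. Among those that fell the same counts were 170, 21, 2 and 1. The fold sizes of 19 called rises are uncertain, as these genes had only 0 to 3 counts over the water libraries. Of these, 2 had 0 counts in water. The median gene had a log2 change near 0. Genes that rose took 8.14 to 8.30% of all counts in PEG 2 h and 3.35 to 3.59% in water, and genes that fell took 1.64 to 1.78% in PEG 2 h and 3.08 to 3.31% in water. Those shares describe the genes the test picked and are no further evidence. Whatever the test, all 3 PEG 2 h libraries lay above all 3 water libraries in 1413 genes (15.3%) and below them in 975 (10.6%), which is the background for statements below that PEG 2 h and water shoot groups did not overlap. Without PEG 2 h replicate A, the deepest library, the fit called 543 genes higher and 169 lower, and the fit of all 24 libraries, with a biological coefficient of variation of 27.4% against 17.2% in the shoot fit, called 401 and 153. Scaled by library totals and not by TMM, the share of calls that were upward was 75.6% in place of 68.2%, and the median of all genes was then 0.08.

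Sulfur-starvation genes, a cold and drought regulator, and stress NAC factors led the genes that rose. This ranking took called genes whose groups did not overlap and whose 6 libraries averaged 20 counts or more. LSU3, a small protein made under sulfur limitation, stood at 105, 88.5 and 52.4 CPM in the PEG 2 h libraries, against 1.12, 2.37 and 1.59 CPM in the water libraries (log2 5.65, SE 0.42, adjusted p = 1.03e-07). CBF3 (DREB1A), a transcription factor of cold and drought tolerance, stood at 159.5, 256 and 142 CPM in the PEG 2 h libraries, against 5.22, 5.92 and 4.15 CPM in the water libraries (log2 5.21, SE 0.39, adjusted p = 3.61e-07). COR15B, which protects chloroplast membranes, stood at 116, 105 and 135 CPM in the PEG 2 h libraries, against 4.47, 5.33 and 4.47 CPM in the water libraries (log2 4.65, SE 0.34, adjusted p = 5.34e-08). In all 3 genes the lowest PEG 2 h library lay more than 16-fold above the highest water library. ERF53, a drought-induced factor of the DREB type, stood at 57.3, 57.4 and 50.2 CPM in the PEG 2 h libraries, against 1.86, 2.96 and 2.23 CPM in the water libraries (log2 4.57, SE 0.27, adjusted p = 2.42e-09). NAC3 (NAC055), a NAC factor of the ABA and jasmonate responses, stood at 34.1, 40.9 and 40.4 CPM in the PEG 2 h libraries, against 1.12, 2.37 and 2.23 CPM in the water libraries (log2 4.33, SE 0.34, adjusted p = 5.19e-08). RD26 (NAC072), a NAC factor that acts in ABA signalling, stood at 213, 253 and 291 CPM in the PEG 2 h libraries, against 11.9, 13 and 19.5 CPM in the water libraries (log2 4.06, SE 0.26, adjusted p = 6.38e-09). For these 3 factors, too, every PEG 2 h library lay far above every water library. AT4G25433, annotated with a peptidoglycan-binding LysM domain, stood at 12.3, 16.2 and 9.47 CPM in the PEG 2 h libraries, against 0.373, 1.18 and 0.638 CPM in the water libraries (log2 4.16, SE 0.43, adjusted p = 1.9e-06). The 10 largest rises by the naming rule also hold LSU1, LSU2 and SDI1, given with the sulfur genes.

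Growth, calcium-binding and transcription factor genes led those that fell, ranked in the same way. AT1G33760, annotated as an integrase-type DNA-binding protein, stood at 2.67, 5.74 and 2.53 CPM in the PEG 2 h libraries, against 55.9, 61.6 and 61.2 CPM in the water libraries (log2 -4.10, SE 0.27, adjusted p = 7.67e-09). EXO (EXORDIUM), a wall protein of brassinosteroid-promoted growth, stood at 57.5, 86.8 and 76.1 CPM in the PEG 2 h libraries, against 448, 561 and 502 CPM in the water libraries (log2 -2.79, SE 0.20, adjusted p = 1.47e-08). Its relative EXL1, needed for growth under low carbon, stood at 35.0, 76.3 and 45.8 CPM in the PEG 2 h libraries, against 286, 361 and 355 CPM in the water libraries (log2 -2.69, SE 0.26, adjusted p = 2.23e-06). AT1G33760 was nearly silent in PEG 2 h, whereas EXO and EXL1 were still well counted there, at levels far below every water library. The EF-hand calcium-binding protein gene AT4G27280 stood at 55.5, 100.3 and 67.9 CPM in the PEG 2 h libraries, against 490.4, 403 and 416 CPM in the water libraries (log2 -2.56, SE 0.20, adjusted p = 5.34e-08). AZF3, a zinc-finger repressor, stood at 18.4, 26.3 and 25.6 CPM in the PEG 2 h libraries, against 119, 144 and 143 CPM in the water libraries (log2 -2.55, SE 0.26, adjusted p = 3.23e-06). ERF105, an ethylene response factor, stood at 24.9, 47.3 and 30.6 CPM in the PEG 2 h libraries, against 203, 165 and 171 CPM in the water libraries (log2 -2.42, SE 0.22, adjusted p = 4.94e-07). In these 3 genes no PEG 2 h library came near the lowest water library. MYB70, a transcription factor, was the tightest of the group at 9.63, 9.79 and 9.79 CPM in the PEG 2 h libraries, against 46.6, 46.2 and 47.8 CPM in the water libraries (log2 -2.27, SE 0.18, adjusted p = 5.38e-08). AT3G19680, of unknown function, was at log2 -2.33, and AT3G50800, uncharacterised, at log2 -2.21. The wound-responsive family gene AT4G33560 was at log2 -2.21, with a call that was lost in the fit of all 24 libraries (adjusted p = 0.186). AZF3, ERF105, AT3G19680, CBF3 and COR15B overlap a gene on the opposite strand in the TAIR10.1 gene table. So do, among called genes named below, ABI1, ABF1, ABF4, RAB18, ATAF1, NAC102, ATAF2, DREB2A, DREB2B, SDI2, APR1, APR2, APR3, P5CS1, BAM3, FKF1, LUX, RVE1, TCH3, RRTF1, WRKY40, WRKY53, WRKY33, ADH1 and HRE1. As the counted strand is unknown here, reads of each such pair cannot be told apart. The plot of single-library levels shows these 20 genes.

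**Figure D1:**
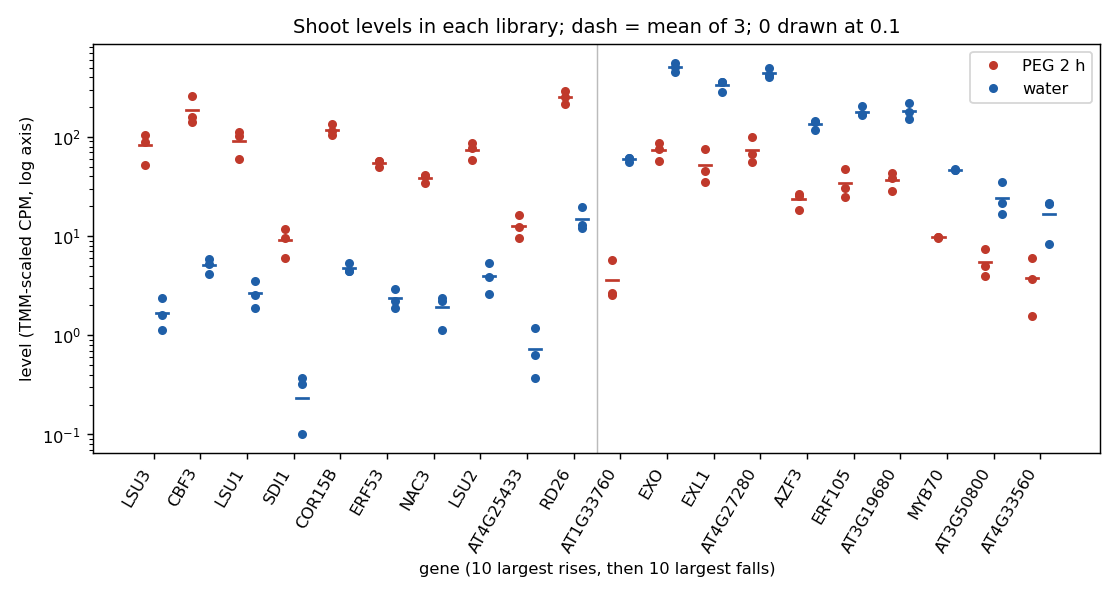
Levels of 20 genes, the 10 largest rises and 10 largest falls under the naming rule (called, 20 counts or more on average, no overlap between groups), in each PEG 2 h and water shoot library (y axis, TMM-scaled CPM on a log axis), red for PEG 2 h and blue for water, with a dash at the mean of 3 libraries. LSU3 lies at 52.4 CPM or more in PEG 2 h and at 2.37 CPM or less in water, and AT1G33760 at 5.74 CPM or less in PEG 2 h and at 55.9 CPM or more in water.

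ABA synthesis and the parts of its signalling chain moved in different directions. NCED3, which makes the precursor of ABA, rose and stood at 13, 16.2 and 14.5 CPM in the PEG 2 h libraries, against 2.98, 0.592 and 0.957 CPM in the water libraries (log2 3.15, SE 0.34, adjusted p = 3.15e-06). The other 6 synthesis and breakdown genes tested were not called, among them the oxidase AAO3 (log2 1.24, adjusted p = 0.332), the catabolic enzyme CYP707A1 (log2 -0.42) and the glucosidase BGLU18 (log2 -0.24), which frees ABA from its glucose ester.

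Of 9 PYR/PYL receptor genes listed, 7 had enough counts to be tested, and 5 fell, 1 rose and 1 was not called (median log2 -1.05, against a median near 0 over all genes). PYL6 stood at 25.9, 31.7 and 34.7 CPM in the PEG 2 h libraries, against 104, 104 and 159 CPM in the water libraries (log2 -2.01, SE 0.21, adjusted p = 1.69e-06). PYL4 stood at 163, 190.5 and 221 CPM in the PEG 2 h libraries, against 633, 625 and 577 CPM in the water libraries (log2 -1.68, SE 0.18, adjusted p = 3.15e-06). PYL5 stood at 143, 185 and 172 CPM in the PEG 2 h libraries, against 378, 398 and 511 CPM in the water libraries (log2 -1.37, SE 0.24, adjusted p = 0.000758). In each of these the highest PEG 2 h library lay below the lowest water library. PYR1 was lower as well, at 54.8 ± 6.93 CPM in PEG 2 h and 113 ± 14.4 CPM in water (log2 -1.05, SE 0.21, adjusted p = 0.0023), a call that the fit of all 24 libraries did not make (adjusted p = 0.0602). PYL1 fell by a smaller step, at 12.4 ± 1.21 CPM in PEG 2 h and 20.9 ± 2.89 CPM in water (log2 -0.78, SE 0.24, adjusted p = 0.0425). Its call was lost without water A (adjusted p = 0.136), water C (0.0946), PEG 2 h A (0.184), PEG 2 h B (0.0784) or PEG 2 h C (0.0863), with library totals (0.0521) and in the fit of all 24 libraries (0.0754). PYL2 was not called (log2 -0.72, adjusted p = 0.0787). PYL9 was the member that rose, at 20.3, 16.5 and 18 CPM in the PEG 2 h libraries, against 6.34, 4.14 and 5.42 CPM in the water libraries (log2 1.76, SE 0.28, adjusted p = 0.000199), with every PEG 2 h library above every water library. PYL7 and PYL8 were too low to test, with 8 and 18 counts over the PEG 2 h libraries and 2 and 9 over the water libraries.

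The PP2C phosphatases, which the receptors hold back, mostly rose, with 6 of 7 tested called upward and 0 downward (median log2 1.98). ABI1 stood at 313, 379 and 371 CPM in the PEG 2 h libraries, against 71.9, 80.5 and 78.8 CPM in the water libraries (log2 2.2, SE 0.15, adjusted p = 1.03e-08). PP2CA stood at 110.1, 156 and 129 CPM in the PEG 2 h libraries, against 30.2, 34.3 and 35.4 CPM in the water libraries (log2 1.98, SE 0.19, adjusted p = 8.37e-07). ABI2 stood at 17.5, 17.2 and 17.0 CPM in the PEG 2 h libraries, against 5.22, 3.55 and 4.15 CPM in the water libraries (log2 1.97, SE 0.26, adjusted p = 2.7e-05). In all 3 the lowest PEG 2 h library lay more than 2-fold above the highest water library. HAB1 rose by less, at 19.8, 16.2 and 18.6 CPM in the PEG 2 h libraries, against 7.45, 7.70 and 7.97 CPM in the water libraries (log2 1.25, SE 0.22, adjusted p = 0.000564), which the fit of all 24 libraries did not call (adjusted p = 0.0858). HAI2, named for its strong induction by ABA, had 62 counts over the PEG 2 h libraries and 0 over the water libraries, at least 12-fold higher with water set at 3 counts over the group. The list median with HAI2 at that bound is again 1.98. HAI1 stood at 5.04, 4.73 and 2.21 CPM in the PEG 2 h libraries, against 0.745, 0 and 1.59 CPM in the water libraries (log2 2.12, SE 0.56, adjusted p = 0.0162), and its call was lost without water A (adjusted p = 0.0655), water B (0.0501) or PEG 2 h A (0.101). The fit of all 24 libraries did not call HAI1 either (adjusted p = 0.106). HAB2 was not called (log2 0.57, adjusted p = 0.283), and HAI3 had 0 counts in all 6 libraries.

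**Figure D2:**
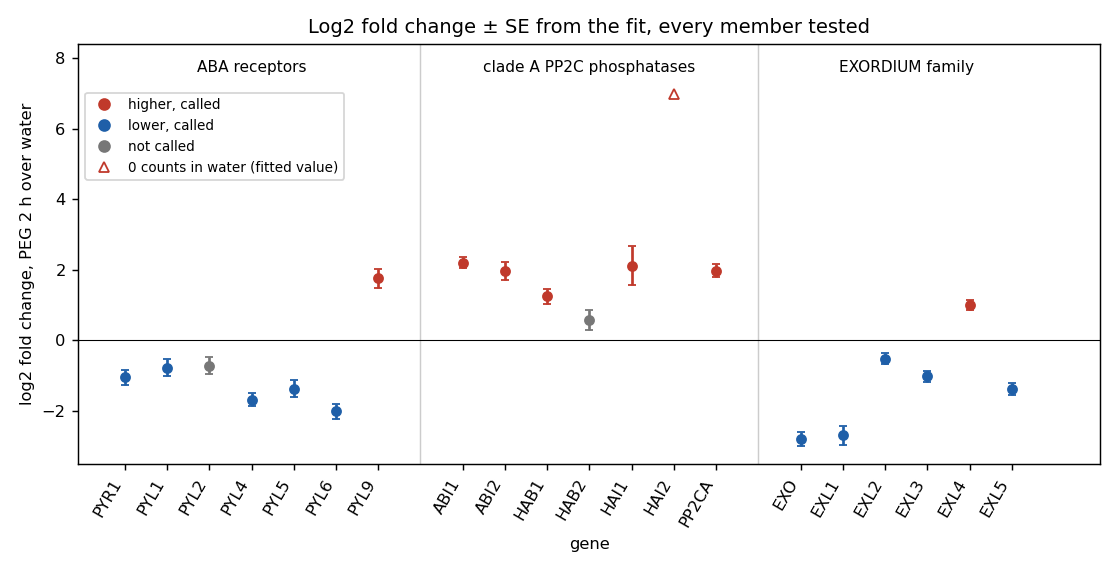
Log2 fold changes, PEG 2 h over water, with the SE of the fit as bars, for every tested ABA receptor, clade A PP2C phosphatase and EXORDIUM-family gene, red where called higher, blue where called lower and grey where not called. Receptors lie below 0 apart from PYL9 at 1.76, phosphatases lie above 0, and the open triangle is HAI2, whose fitted value rests on 0 counts in water.

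Downstream, 4 of 7 genes for SnRK2 kinases, ABF factors and their partners rose and 0 fell (median log2 0.90). ABF1, which activates genes with an ABA-responsive element, stood at 83.8, 69.6 and 72.9 CPM in the PEG 2 h libraries, against 12.7, 15.4 and 14.7 CPM in the water libraries (log2 2.41, SE 0.17, adjusted p = 9.63e-09). AFP3, of a family that binds and restrains ABA-responsive factors, stood at 14.8, 18.6 and 17.0 CPM in the PEG 2 h libraries, against 4.84, 5.92 and 5.42 CPM in the water libraries (log2 1.63, SE 0.23, adjusted p = 5.14e-05). Both were higher in every PEG 2 h library. ABF2 was at log2 1.25 (adjusted p = 0.00394) and ABF4 at log2 0.90 (adjusted p = 0.00141), while ABF3, SnRK2.2 and AFP1 were not called, at log2 0.47, 0.18 and 0.09. The ABF4 call was not made in the fit of all 24 libraries (adjusted p = 0.276).

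Most genes for proteins that protect drying cells rose, with 14 of 20 tested called upward, 1 downward and 5 not called (median log2 1.44). RD29A, a hydrophilic protein long used as a marker of drought and cold, stood at 1214, 1214 and 1338 CPM in the PEG 2 h libraries, against 111, 168 and 131 CPM in the water libraries (log2 3.20, SE 0.19, adjusted p = 2.31e-09). XERO2, a dehydrin, stood at 264, 259 and 265 CPM in the PEG 2 h libraries, against 30.6, 33.8 and 41.5 CPM in the water libraries (log2 2.89, SE 0.19, adjusted p = 7.67e-09). COR15A, the near-identical partner of COR15B, stood at 290.0, 332 and 309 CPM in the PEG 2 h libraries, against 19.8, 27.2 and 30.9 CPM in the water libraries (log2 3.57, SE 0.29, adjusted p = 1.56e-07), and reads may be shared between the pair. These levels hardly varied among PEG 2 h libraries, from 259 to 265 CPM for XERO2. COR6.6, a small cold-induced protein, averaged 1549 ± 216 CPM in PEG 2 h and 383 ± 114 CPM in water (log2 2.01). The dehydrin genes ERD10 and COR47 averaged 1365 ± 85.3 CPM in PEG 2 h and 501 ± 84.0 CPM in water (log2 1.45), and 1979.8 ± 233 CPM in PEG 2 h and 956 ± 192 CPM in water (log2 1.05). ERD10 and COR47 were not called in the fit of all 24 libraries (adjusted p = 0.0987 and 0.0575). KIN1 was at log2 2.50, LEA14 at log2 1.43, RD20 at log2 1.51 and COR413-PM1 at log2 1.95. Among the others, RD29B, an ABA marker at low counts here, averaged 2.79 ± 1.96 CPM in PEG 2 h and 1.07 ± 0.730 CPM in water and was not called (log2 1.43, adjusted p = 0.216). RD22, likewise uncalled, was at log2 0.03 (adjusted p = 0.966). The dehydrin RAB18 fell, at 14.5, 23.3 and 18 CPM in the PEG 2 h libraries, against 36.1, 42.6 and 44.3 CPM in the water libraries (log2 -1.17, SE 0.34, adjusted p = 0.04), and its call was lost without water A (adjusted p = 0.0503), water B (0.106), water C (0.137), PEG 2 h A (0.158) or PEG 2 h C (0.10).

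Stress NAC factors were all called upward, 6 of 6 tested (median log2 3.13). ATAF1, a NAC factor of drought and ABA responses, stood at 648, 766 and 694 CPM in the PEG 2 h libraries, against 67.5, 66.9 and 96.6 CPM in the water libraries (log2 3.18, SE 0.21, adjusted p = 7.67e-09). NAC102 averaged 403 ± 23.7 CPM in PEG 2 h and 59.0 ± 2.53 CPM in water (log2 2.77), NAC032 96.5 ± 10.7 CPM in PEG 2 h and 11.1 ± 3.84 CPM in water (log2 3.09) and ATAF2 192 ± 32.5 CPM in PEG 2 h and 77.6 ± 5.37 CPM in water (log2 1.31). Each of these 4 was higher in every PEG 2 h library, and the call of all 6 NAC genes was kept without any single water or PEG 2 h library. NAC019, too low to test, had 33 counts in PEG 2 h and 1 in water.

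DREB and CBF factors had 9 of 12 tested called upward, 1 downward and 2 not called (median log2 2.1). RAP2.4, of the DREB group, stood at 391, 474 and 422 CPM in the PEG 2 h libraries, against 122, 105 and 89.6 CPM in the water libraries (log2 2.02, SE 0.16, adjusted p = 5.84e-08). CBF1 averaged 73.4 ± 25.3 CPM in PEG 2 h and 11.6 ± 4.91 CPM in water (log2 2.60, SE 0.38, adjusted p = 0.00036). CBF2 averaged 249 ± 91.9 CPM in PEG 2 h and 108 ± 16.9 CPM in water (log2 1.19, SE 0.29, adjusted p = 0.0122), a call that was lost without water B (adjusted p = 0.0667) or PEG 2 h B (0.0542). CBF1, CBF2 and CBF3 are neighbouring copies of high similarity, so reads may be shared among them. DREB2A, a regulator of drought and heat responses, averaged 15.4 ± 4.46 CPM in PEG 2 h and 1.44 ± 0.368 CPM in water (log2 3.32, SE 0.71, adjusted p = 0.00648), called except without water C (adjusted p = 0.0518). DREB2B averaged 18.9 ± 1.84 CPM in PEG 2 h and 1.99 ± 0.716 CPM in water (log2 3.13, SE 0.43, adjusted p = 4.98e-05). DDF1, a relative of the CBF factors known for gibberellin effects, was the one of this list that fell, at 25.6 ± 2.28 CPM in PEG 2 h and 60.9 ± 24.2 CPM in water (log2 -1.24, SE 0.24, adjusted p = 0.00152). AT1G33760 (log2 -4.10), annotated with the same product text as ERF53, is counted neither in this list nor among the ERF factors below. CBF4 (log2 0.30) and DDF2 (log2 -0.76, adjusted p = 0.1) were not called.

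HD-Zip factors had 6 of 8 called upward and 1 downward (median log2 1.08). HAT22 stood at 77.3, 71.6 and 65.3 CPM in the PEG 2 h libraries, against 19.8, 23.7 and 25.2 CPM in the water libraries (log2 1.64, SE 0.18, adjusted p = 2.38e-06). HB-7, an ABA-induced factor, stood at 29.6, 34.1 and 33.1 CPM in the PEG 2 h libraries, against 9.69, 5.33 and 10.5 CPM in the water libraries (log2 1.85, SE 0.23, adjusted p = 1.41e-05), and its close relative HB-12 averaged 11.8 ± 1.78 CPM in PEG 2 h and 2.49 ± 1.16 CPM in water (log2 2.14). HAT1, a factor of the brassinosteroid pathway, fell and averaged 15.3 ± 1.51 CPM in PEG 2 h and 41.2 ± 7.88 CPM in water (log2 -1.43). The zinc-finger genes split. ZAT6 rose and stood at 118, 166 and 128 CPM in the PEG 2 h libraries, against 34.3, 28.4 and 37.6 CPM in the water libraries (log2 2.02, SE 0.19, adjusted p = 5.38e-07). SZF1, a salt-inducible zinc-finger gene, fell and stood at 63.7, 90.2 and 84.0 CPM in the PEG 2 h libraries, against 242, 258 and 254 CPM in the water libraries (log2 -1.67, SE 0.15, adjusted p = 3.94e-07). ZAT12, a marker of oxidative and light stress, was not called (log2 0.29, adjusted p = 0.539), nor was SZF2 (log2 -0.11).

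Genes of sulfur deficiency formed the list with the highest median change, log2 3.68, with 8 of 9 tested called upward and 0 downward. LSU1 stood at 113, 101 and 60.3 CPM in the PEG 2 h libraries, against 1.86, 3.55 and 2.55 CPM in the water libraries (log2 5.15, SE 0.42, adjusted p = 6.47e-07). LSU2 stood at 87.7, 76.7 and 59.0 CPM in the PEG 2 h libraries, against 2.61, 5.33 and 3.83 CPM in the water libraries (log2 4.30, SE 0.39, adjusted p = 1.34e-06). In all of LSU1, LSU2 and LSU3, PEG 2 h C was the lowest PEG library and still over 10-fold above the highest water library. The LSU genes are alike in sequence, so reads may be shared among them. SDI1, which represses glucosinolate synthesis when sulfur is short, had 128 counts over the PEG 2 h libraries and 2 over the water libraries, a ratio of 37.3 (95% counting interval 10.1 to 311, which covers counting error only). Its relative SDI2 averaged 36.1 ± 3.17 CPM in PEG 2 h and 2.68 ± 0.982 CPM in water (log2 3.68, SE 0.38, adjusted p = 1.99e-06). Adenylyl sulfate reductase, the enzyme that commits sulfate to reduction, is encoded by APR1, APR2 and APR3. APR3 stood at 203, 168 and 205 CPM in the PEG 2 h libraries, against 19.4, 18.4 and 22.3 CPM in the water libraries (log2 3.25, SE 0.18, adjusted p = 2.31e-09). APR1 stood at 85.6, 67.5 and 80.5 CPM in the PEG 2 h libraries, against 11.6, 5.33 and 7.34 CPM in the water libraries (log2 3.23, SE 0.25, adjusted p = 3.65e-08). APR2, the major isoform, averaged 145 ± 10.6 CPM in PEG 2 h and 56.5 ± 4.02 CPM in water (log2 1.37, SE 0.15, adjusted p = 4.37e-06), and LSU4 was not called (log2 1.23, adjusted p = 0.107). The 8 calls were kept without any single library.

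Enzymes of proline, raffinose sugars, trehalose phosphate and starch breakdown were among the genes that rose. P5CS1, which commits glutamate to proline, stood at 63.0, 76.3 and 77.7 CPM in the PEG 2 h libraries, against 13.4, 23.7 and 23.0 CPM in the water libraries (log2 1.86, SE 0.20, adjusted p = 2.81e-06), while the next enzyme P5CR (log2 0.01) and the proline dehydrogenase ERD5 (log2 0.24, adjusted p = 0.399) were not called. GolS3, which makes galactinol for the raffinose sugars, stood at 23.0, 27.0 and 25.6 CPM in the PEG 2 h libraries, against 0.745, 2.37 and 3.83 CPM in the water libraries (log2 3.37, SE 0.32, adjusted p = 5.4e-07). SIP1, a raffinose synthase, stood at 16.0, 11.5 and 13.6 CPM in the PEG 2 h libraries, against 5.22, 2.96 and 4.78 CPM in the water libraries (log2 1.62, SE 0.29, adjusted p = 0.000611). GolS1, another galactinol synthase, averaged 6.16 ± 0.137 CPM in PEG 2 h and 4.03 ± 3.13 CPM in water and was not called (adjusted p = 0.626). Of 11 starch breakdown genes 4 rose, 0 fell and 7 were not called (median log2 0.34). BAM3, the chloroplast beta-amylase that acts in leaves at night, stood at 587, 540.0 and 583 CPM in the PEG 2 h libraries, against 67.5, 70.5 and 80.1 CPM in the water libraries (log2 2.97, SE 0.16, adjusted p = 2.31e-09). BAM1, the beta-amylase known from osmotic stress, stood at 105, 116 and 132 CPM in the PEG 2 h libraries, against 54.0, 55.1 and 50.4 CPM in the water libraries (log2 1.14, SE 0.15, adjusted p = 2.29e-05). BAM3 lay more than 4-fold above its highest water library in every PEG 2 h library, and BAM1 groups did not overlap. PHS2, a cytosolic glucan phosphorylase, was at log2 0.94 (adjusted p = 0.00198), not called in the fit of all 24 libraries (0.144). SEX1, the glucan water dikinase that opens starch to attack, averaged 56.5 ± 12.7 CPM in PEG 2 h and 33.7 ± 11.8 CPM in water (log2 0.78, SE 0.23, adjusted p = 0.0352). That call was lost without water A (adjusted p = 0.102), water C (0.180), PEG 2 h A (0.0835) or PEG 2 h C (0.203). It was also lost with a filter at a mean count of 20 (0.0520) and in the fit of all 24 libraries (0.342). The debranching and disproportionating enzymes ISA3, DPE1 and DPE2 were at log2 0.34, -0.16 and 0.03, not called. Of 5 trehalose phosphate synthases 3 rose (median log2 0.92), and TPS8 was lost without water C (adjusted p = 0.0699) or PEG 2 h C (0.0523) and in the fit of all 24 libraries (0.0782). TPS11 stood at 12.4, 11.8 and 13.6 CPM in the PEG 2 h libraries, against 2.24, 2.96 and 3.19 CPM in the water libraries (log2 2.16, SE 0.29, adjusted p = 3.83e-05). Sugar transporters had 1 of 10 called, STP13, at 13.4 ± 3.02 CPM in PEG 2 h and 7.03 ± 1.58 CPM in water (log2 0.94, SE 0.27, adjusted p = 0.0257), which was lost without water B (adjusted p = 0.0615), water C (0.140), PEG 2 h A (0.0968) or PEG 2 h C (0.108). STP13 was also not called by DESeq2 (adjusted p = 0.0575) or in the fit of all 24 libraries (0.408).

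Clock genes of the evening rose in 7 of 9 cases and 0 fell (median log2 1.54). ELF4, of the evening complex that restrains growth and the morning genes, stood at 178, 172 and 174 CPM in the PEG 2 h libraries, against 10.1, 17.8 and 13.7 CPM in the water libraries (log2 3.69, SE 0.23, adjusted p = 3.61e-09). FKF1, a blue-light receptor of flowering time, stood at 159, 154 and 132 CPM in the PEG 2 h libraries, against 15.7, 21.9 and 20.4 CPM in the water libraries (log2 2.95, SE 0.18, adjusted p = 3.84e-09). PRR5, a repressor of morning genes, averaged 125 ± 4.58 CPM in PEG 2 h and 20.6 ± 1.35 CPM in water (log2 2.61, SE 0.18, adjusted p = 7.67e-09). No library of either group overlapped the other in these 3 genes. LUX, TOC1 and GI were at log2 1.54, 1.60 and 0.84, and ZTL and BOA were not called (log2 0.42 and 1.13). Morning genes had 3 of 6 called, all upward (median log2 1.11). RVE1, a morning factor of auxin rhythms, stood at 14.4, 13.2 and 12.3 CPM in the PEG 2 h libraries, against 1.12, 0.592 and 0.957 CPM in the water libraries (log2 3.79, SE 0.46, adjusted p = 1.02e-05). CDF3, a flowering-time repressor, stood at 106, 129.7 and 97.5 CPM in the PEG 2 h libraries, against 36.5, 36.1 and 28.7 CPM in the water libraries (log2 1.72, SE 0.18, adjusted p = 2.25e-06). The core morning gene CCA1 and PRR7, one of its repressors, were not called (log2 0.43 and 0.29). These genes cycle with the day, and the labels used here give no hour of harvest. Sampling at 2 h of PEG against 1 h of water cannot be told apart from the effect of PEG on them. Light signalling factors had 4 of 9 called upward (median log2 0.30), with the photomorphogenesis factor HY5 at 31.6, 32.1 and 21.8 CPM in the PEG 2 h libraries, against 13, 8.29 and 13.1 CPM in the water libraries (log2 1.28, SE 0.24, adjusted p = 0.000927). The other calls, PIF3 (adjusted p = 0.0541), ELIP1 (0.326) and ELIP2 (0.610), were not made in the fit of all 24 libraries. ELIP2 was also lost without water A (0.0566) or PEG 2 h A (0.0713).

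The EXORDIUM family fell in 5 of 6 cases (median log2 -1.19). EXL5 stood at 70.8, 79.0 and 90.3 CPM in the PEG 2 h libraries, against 170.3, 247 and 202 CPM in the water libraries (log2 -1.37, SE 0.17, adjusted p = 1.19e-05). EXL3 averaged 85.8 ± 8.78 CPM in PEG 2 h and 174 ± 25.1 CPM in water (log2 -1.02, SE 0.15, adjusted p = 0.000117), not called in the fit of all 24 libraries (adjusted p = 0.0553). EXL2 averaged 594 ± 56.2 CPM in PEG 2 h and 849.5 ± 82.0 CPM in water (log2 -0.52, SE 0.16, adjusted p = 0.0447). That call was lost without water B (adjusted p = 0.128), water C (0.0944), PEG 2 h A (0.217), PEG 2 h B (0.127) or PEG 2 h C (0.0679), with library totals (0.0894) and in the fit of all 24 libraries (0.284). EXL4 went the other way, at 197, 209.7 and 199 CPM in the PEG 2 h libraries, against 87.2, 108 and 107 CPM in the water libraries (log2 1.00, SE 0.14, adjusted p = 8.11e-05), with all PEG 2 h libraries above all water libraries.

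Touch and calcium-binding genes had 5 of 7 called downward and 1 upward (median log2 -0.87), or 3 downward without PEG 2 h A, where the calls of TCH3 (adjusted p = 0.138) and CAMBP25 (0.0815) were lost. The upward call, the kinase gene CIPK9, was lost without water A (adjusted p = 0.0825), water C (0.0681), PEG 2 h A (0.0503) or PEG 2 h B (0.0773). TCH4, a touch-induced xyloglucan endotransglucosylase, stood at 0.741, 2.36 and 1.58 CPM in the PEG 2 h libraries, against 16.8, 5.92 and 7.02 CPM in the water libraries (log2 -2.83, SE 0.56, adjusted p = 0.00179). BAP1, which binds membranes with calcium and restrains cell death, stood at 20.4, 32.8 and 19.9 CPM in the PEG 2 h libraries, against 65.2, 65.1 and 69.5 CPM in the water libraries (log2 -1.47, SE 0.22, adjusted p = 0.000102). CML37, a calmodulin-like protein, averaged 3.68 ± 1.53 CPM in PEG 2 h and 13.1 ± 3.96 CPM in water (log2 -1.94). All were lower in every PEG 2 h library than in any water library. ERF factors had 6 of 13 called downward, 3 upward and 4 not called (median log2 -0.30). With single libraries left out, 4 to 6 were called downward and 1 to 3 upward. ERF104, known from the response to bacterial flagellin, stood at 39.4, 66.2 and 46.4 CPM in the PEG 2 h libraries, against 208, 184 and 174 CPM in the water libraries (log2 -1.91, SE 0.19, adjusted p = 1.17e-06). ERF6 averaged 66.7 ± 20.6 CPM in PEG 2 h and 157 ± 11.4 CPM in water (log2 -1.25) and RRTF1, a redox-responsive factor, 26.9 ± 7.08 CPM in PEG 2 h and 67.9 ± 10.3 CPM in water (log2 -1.36). ERF9, a repressor, rose, at 46.0 ± 11.0 CPM in PEG 2 h and 12 ± 2.89 CPM in water (log2 1.93, SE 0.31, adjusted p = 0.000315). The other upward calls, ERF4 and ERF8, were both lost without water B (adjusted p = 0.0860 and 0.0601) or PEG 2 h B (0.115 and 0.0683), and ERF4 also without water A (0.0521). The RRTF1 call was not made in the fit of all 24 libraries (adjusted p = 0.0531).

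Defence regulators were called lower or not called. WRKY factors had 4 of 8 called downward and 0 upward (median log2 -0.76). WRKY40 stood at 32.9, 45.6 and 48.9 CPM in the PEG 2 h libraries, against 114, 123 and 112 CPM in the water libraries (log2 -1.46, SE 0.16, adjusted p = 3.68e-06). WRKY53, a regulator of leaf senescence, stood at 14.5, 14.9 and 18 CPM in the PEG 2 h libraries, against 32.8, 43.2 and 38.0 CPM in the water libraries (log2 -1.26, SE 0.22, adjusted p = 0.000551), and WRKY33, which acts in camalexin synthesis, averaged 61.6 ± 13.5 CPM in PEG 2 h and 129 ± 22.6 CPM in water (log2 -1.07). The fit of all 24 libraries did not call WRKY53 (adjusted p = 0.0707) or WRKY33 (0.388). The remaining downward call, WRKY11, was lost without water A (adjusted p = 0.0573), water B (0.211), PEG 2 h A (0.224) or PEG 2 h B (0.167). It was also lost with library totals (0.0782) and in the fit of all 24 libraries (0.146). CBP60G, which promotes salicylic acid synthesis, stood at 4.44, 6.42 and 10.7 CPM in the PEG 2 h libraries, against 14.5, 18.4 and 21.7 CPM in the water libraries (log2 -1.41, SE 0.30, adjusted p = 0.00355) and was the only call among 7 salicylic acid and defence genes. PR2, a glucanase and defence marker, stood at 0.593, 3.38 and 5.05 CPM in the PEG 2 h libraries, against 23.1, 12.4 and 41.1 CPM in the water libraries and was not called (log2 -3.37, adjusted p = 0.062). DESeq2 did call it (adjusted p = 0.0257). So did a filter at a mean count of 20 (0.0459), the fit of only the 6 libraries (0.0280) and the fit of all 24 (0.0253). Of 12 glucosinolate genes 2 fell and 0 rose (median log2 -0.13). MYB51, which activates indole glucosinolate synthesis, was one, at 3.85, 3.71 and 5.05 CPM in the PEG 2 h libraries, against 14.2, 20.7 and 16.9 CPM in the water libraries (log2 -2.03, SE 0.29, adjusted p = 8.29e-05), and the other, MYB28, was lost without water A (adjusted p = 0.123), PEG 2 h B (0.0687) or PEG 2 h C (0.107). The biosynthetic enzymes CYP79B2, CYP83B1 and MAM1 were at log2 0.11, 0.01 and -0.10, not called.

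Expansins, which loosen cell walls, had 4 of 11 called upward and 0 downward (median log2 0.49), EXPA10 at 118, 108 and 104 CPM in the PEG 2 h libraries, against 19.0, 21.9 and 24.2 CPM in the water libraries (log2 2.34, SE 0.16, adjusted p = 8.14e-09) and EXPA1 at 277, 249 and 249.7 CPM in the PEG 2 h libraries, against 132, 116 and 153 CPM in the water libraries (log2 0.95, SE 0.17, adjusted p = 0.000725). Xyloglucan endotransglucosylases had 3 of 8 called downward and 0 upward (median log2 -0.76), or 1 downward without PEG 2 h A, where XTH8 (adjusted p = 0.0895) and XTH24 (0.121) were lost. TCH4, an enzyme of this kind that fell further (log2 -2.83), is counted with the touch genes and not in this list. XTH23 stood at 29.5, 55.4 and 48.9 CPM in the PEG 2 h libraries, against 132, 173 and 109 CPM in the water libraries (log2 -1.64, SE 0.26, adjusted p = 0.000393). XTH4 and XTH7 were not called (log2 -0.45 and -0.47). The difference between the expansins and the xyloglucan enzymes was not tested.

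None of the 5 lipoxygenases tested was called, which are the genes whose symbol, LOX, the name ulox contains. LOX2, the chloroplast enzyme of wound-induced jasmonate, stood at 131, 119.9 and 143 CPM in the PEG 2 h libraries, against 122, 114 and 91.5 CPM in the water libraries (log2 0.27, adjusted p = 0.504). LOX3 stood at 53.3, 53.7 and 63.1 CPM in the PEG 2 h libraries, against 39.9, 53.3 and 35.1 CPM in the water libraries (log2 0.42, adjusted p = 0.294). LOX2 overlapped between the groups, and the lowest PEG 2 h value of LOX3 lay just above its highest water value. LOX1, LOX4 and LOX6 were at log2 -0.10, -0.25 and -0.27, and LOX5 was too low to test. Of the 10 genes that act after the lipoxygenases 3 rose (median log2 0.45), where 7.31% of all genes rose. They are the allene oxide cyclases AOC1, at 97.8, 94.2 and 94.1 CPM in the PEG 2 h libraries, against 41.4, 45.6 and 52.6 CPM in the water libraries (log2 1.03, SE 0.16, adjusted p = 0.000161), AOC2 (log2 0.71, adjusted p = 0.00575) and AOC3 (log2 0.63, adjusted p = 0.0188), close copies that may share reads. AOC2 was not called in the fit of all 24 libraries (adjusted p = 0.193), and AOC3 not without water A (0.116) or PEG 2 h B (0.135).

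Fermentation and sucrose synthase genes rose in 3 of 3 cases, while low-oxygen regulators had 2 of 7 called downward and 0 upward (median log2 1.56 and -0.91). ADH1, alcohol dehydrogenase, stood at 39.3, 30.7 and 23.7 CPM in the PEG 2 h libraries, against 8.94, 4.14 and 7.66 CPM in the water libraries (log2 2.13, SE 0.28, adjusted p = 2.62e-05). SUS1, a sucrose synthase, stood at 12.6, 10.5 and 13.3 CPM in the PEG 2 h libraries, against 4.1, 3.55 and 4.47 CPM in the water libraries (log2 1.56, SE 0.32, adjusted p = 0.00245). HRA1, which restrains the hypoxia response, stood at 1.93, 2.03 and 1.26 CPM in the PEG 2 h libraries, against 12.3, 6.51 and 8.61 CPM in the water libraries (log2 -2.37, SE 0.44, adjusted p = 0.001), and HRE1, a hypoxia-responsive ethylene factor, at 9.04, 6.75 and 9.79 CPM in the PEG 2 h libraries, against 16.8, 20.1 and 19.8 CPM in the water libraries (log2 -1.13, SE 0.23, adjusted p = 0.0028). ADH1 and SUS1 were higher and these regulators lower in every PEG 2 h library than in any water library. PDC2, a pyruvate decarboxylase, averaged 62.5 ± 5.15 CPM in PEG 2 h and 35.7 ± 7.29 CPM in water (log2 0.81, SE 0.18, adjusted p = 0.00529), a call lost without water A (adjusted p = 0.0539). The fit of all 24 libraries did not call ADH1 (adjusted p = 0.177) or PDC2 (0.129).

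Among ethylene genes 2 of 12 rose and 1 fell. ERS2, a receptor, stood at 20.4, 19.6 and 24 CPM in the PEG 2 h libraries, against 12.7, 8.29 and 6.38 CPM in the water libraries (log2 1.22, SE 0.24, adjusted p = 0.00152), and ACS7, which makes the ethylene precursor, at 4.74, 3.38 and 7.89 CPM in the PEG 2 h libraries, against 13.8, 23.1 and 21.7 CPM in the water libraries (log2 -1.87, SE 0.30, adjusted p = 0.000233). RGL3, a DELLA repressor of gibberellin action, was one of 2 called among 10 brassinosteroid and gibberellin genes, at 9.48, 12.2 and 13.6 CPM in the PEG 2 h libraries, against 1.49, 3.55 and 5.10 CPM in the water libraries (log2 1.73, SE 0.33, adjusted p = 0.00107). The other, BEE3, was called upward except without water A (adjusted p = 0.103), water B (0.0550), water C (0.0745) or PEG 2 h B (0.166) and in the fit of all 24 libraries (0.291).

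Photosynthesis and the protein synthesis machinery showed few calls. Light-harvesting and photosystem genes had 0 of 25 called upward and 1 downward (median log2 -0.25), and the sum of their levels was 15.3 to 19.4% of the scaled total in PEG 2 h and 18.7 to 21.4% in water. All 25 lay below 0, at log2 -1.11 to -0.03. Of all 9207 genes 4615 did. With library totals 24 of the 25 lay below 0. The one call, PETE1 (plastocyanin), averaged 472 ± 22.5 CPM in PEG 2 h and 667 ± 31.1 CPM in water (log2 -0.50, SE 0.14, adjusted p = 0.021), and was lost without water B (adjusted p = 0.0573), PEG 2 h A (0.104), PEG 2 h B (0.0567) or PEG 2 h C (0.0621) and in the fit of all 24 libraries (0.475). Rubisco and Calvin cycle genes had 0 of 12 called (median log2 -0.16; 5.83 to 6.93% in PEG 2 h and 6.95 to 7.74% in water), with all 12 below 0. Of these, 10 stayed below 0 with library totals. Genes encoded in the chloroplast had 0 of 37 called. Of 218 genes whose product text names a ribosomal protein and no organelle, 2 rose and 1 fell (median log2 -0.06), or 1 to 3 in either direction with single libraries left out. PIP aquaporins had 1 of 12 called (0 to 2 with single libraries left out), PIP2A, a plasma membrane water channel, at 825 ± 63.6 CPM in PEG 2 h and 572 ± 19.9 CPM in water (log2 0.53, SE 0.14, adjusted p = 0.0206), lost without water A (adjusted p = 0.0764), PEG 2 h A (0.0749) or PEG 2 h B (0.0994) and in the fit of all 24 libraries (0.298). TIP aquaporins had 0 of 4 called, cuticular wax genes 0 of 8 and auxin genes 0 of 9. The tonoplast channel DELTA-TIP was at log2 -0.48 (adjusted p = 0.0572), which was called by DESeq2 (0.00853), at a mean count of at least 20 (0.0237) and in the fit of only the 6 libraries (0.0318). Counts of calls by list stand in the plot of gene lists.

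**Figure D3:**
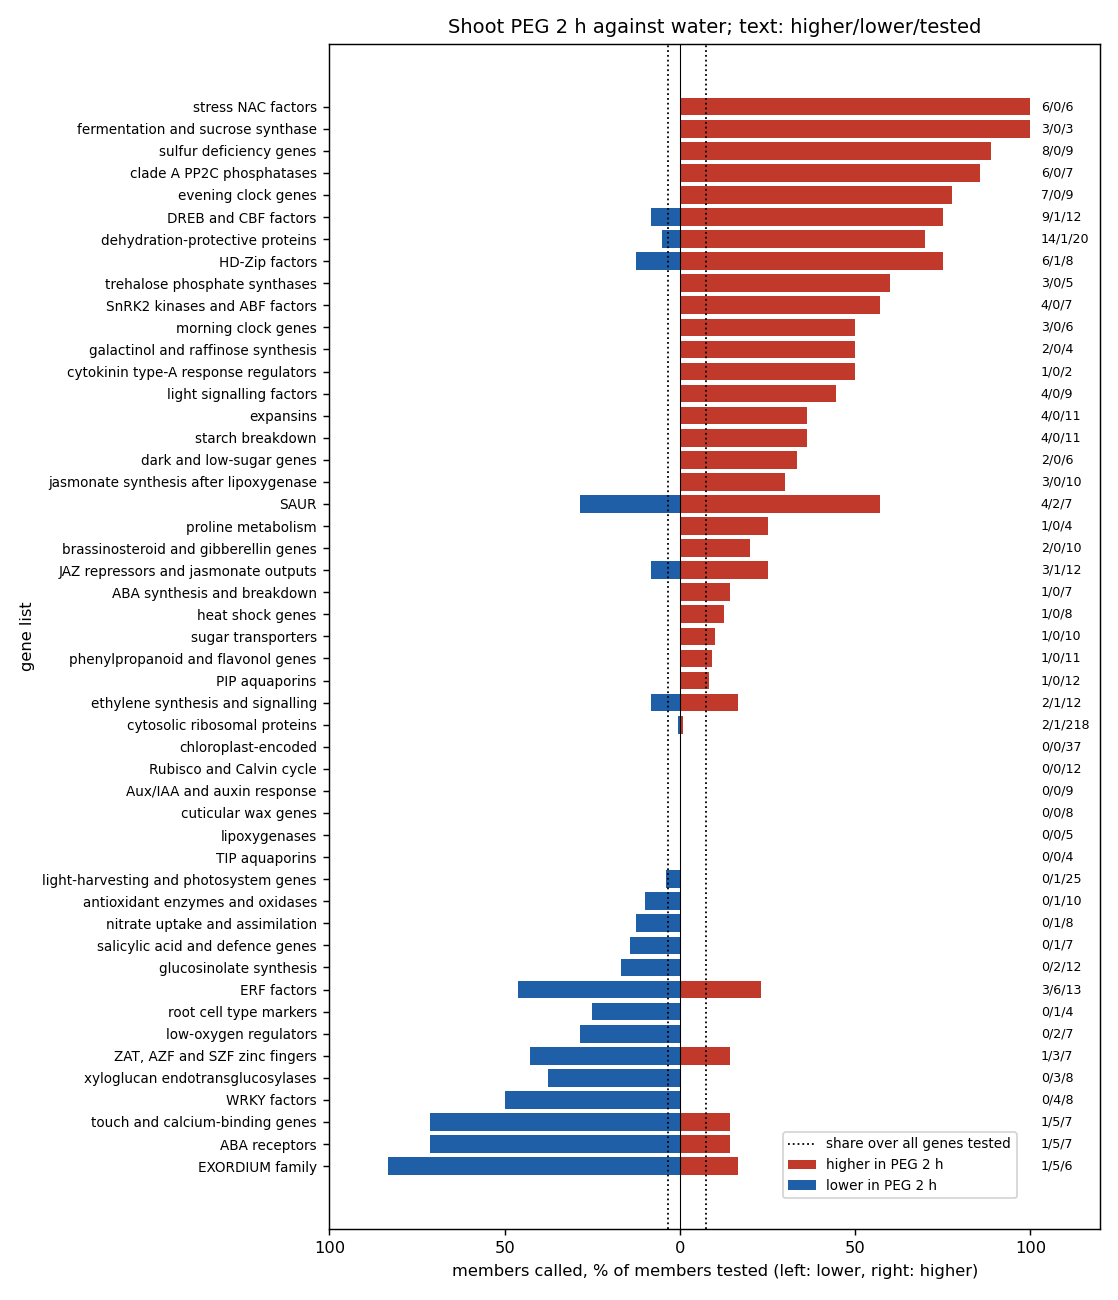
Share of tested members of each gene list called higher (red, right) or lower (blue, left) in PEG 2 h than in water, in % of the members tested, with the counts written beside each bar as higher/lower/tested and dotted lines at the shares over all genes. The NAC list (6 of 6) and the fermentation list (3 of 3) reach furthest right and the EXORDIUM list (5 of 6) furthest left, against 7.31% and 3.41% over all genes.

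The 2 h libraries were then placed between those of 1 h and 3 h of PEG. Against 1 h, 156 of 9207 genes (1.69%) were called at 2 h, 118 (1.28%) higher and 38 (0.413%) lower. That count depended on single libraries, at 24 without PEG 1 h A, 303 without PEG 1 h B, 18 without PEG 2 h A, 43 without PEG 2 h B and 21 without PEG 2 h C. Library totals in place of TMM moved the median of all genes to 0.17 and the calls to 405 higher and 44 lower. ABF1 stood at 83.8, 69.6 and 72.9 CPM after 2 h, against 33.4, 31.1 and 38.2 CPM after 1 h (log2 1.15, SE 0.15, adjusted p = 0.00179). ADH1 stood at 39.3, 30.7 and 23.7 CPM after 2 h, against 8.35, 9.53 and 4.82 CPM after 1 h (log2 2.02, SE 0.26, adjusted p = 0.00179). SUS1 stood at 12.6, 10.5 and 13.3 CPM after 2 h, against 2.34, 3.60 and 0.741 CPM after 1 h (log2 2.31, SE 0.33, adjusted p = 0.00295). In these 3 genes each 2 h library was above each 1 h library. That held in 15.1% of all genes, and the opposite order in 9.76%. In water ADH1 and SUS1 averaged 6.91 ± 2.48 and 4.04 ± 0.459 CPM. CYP72A15, a cytochrome P450, stood at 63.3, 56.7 and 61.2 CPM after 2 h, against 14.4, 26.5 and 23.0 CPM after 1 h (log2 1.49, SE 0.22, adjusted p = 0.00295). AT2G43140, annotated as a helix-loop-helix protein and overlapped by an opposite-strand gene, stood at 28.3, 30.4 and 32.2 CPM after 2 h, against 58.4, 57.0 and 80.4 CPM after 1 h (log2 -1.11, SE 0.17, adjusted p = 0.00316). PYL6 stood at 25.9, 31.7 and 34.7 CPM after 2 h, against 56.1, 54.6 and 79.7 CPM after 1 h (log2 -1.05, SE 0.21, adjusted p = 0.0204), a call lost without PEG 2 h A (adjusted p = 0.0833) or PEG 2 h B (0.0620). WRKY53 was at log2 -1.18 and AZF3 at log2 -1.36, both called lower at 2 h. Those calls were lost for WRKY53 without PEG 2 h A (adjusted p = 0.0678) or PEG 2 h B (0.0544) and for AZF3 without PEG 2 h A (0.0741) or PEG 2 h C (0.0542). Of the protective protein list 5 of 20 were called higher at 2 h than at 1 h and 0 lower (median log2 0.36), of the ABA receptors 0 higher and 2 lower of 7 (-0.69), and of the sulfur, NAC and PP2C lists 0 of 9, 0 of 6 and 0 of 7.

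Between 3 h and 2 h, 39 genes (0.424%) were called, 36 (0.391%) higher and 3 (0.0326%) lower at 3 h, and library totals moved the median of all genes to -0.12. The count was 18 without PEG 2 h A, 21 without PEG 2 h C, PEG 3 h A or PEG 3 h B, and 27 and 28 without PEG 2 h B and PEG 3 h C. Which interval held more calls depended on the fit. With only the 6 libraries of each comparison, 294 genes were called between 3 h and 2 h. Between 2 h and 1 h that fit called 167. All 3 h libraries lay above all 2 h libraries in 11.1% of all genes and below them in 10.6%. AT4G28140, annotated as an integrase-type DNA-binding protein, stood at 102, 89.2 and 90.2 CPM after 3 h, against 24.9, 26.7 and 30.6 CPM after 2 h (log2 1.77, SE 0.16, adjusted p = 2.11e-05). ERF53 stood at 171, 163 and 146 CPM after 3 h, against 57.3, 57.4 and 50.2 CPM after 2 h (log2 1.53, SE 0.17, adjusted p = 0.000238). XERO2 stood at 656, 701 and 695 CPM after 3 h, against 264, 259 and 265 CPM after 2 h (log2 1.38, SE 0.17, adjusted p = 0.000599). All 3 were more than 2-fold higher in every 3 h library than in any 2 h library. EXPA10 stood at 224, 236 and 236 CPM after 3 h, against 118, 108 and 104 CPM after 2 h (log2 1.08, SE 0.14, adjusted p = 0.000599). PYL4 stood at 71.4, 100.5 and 98.1 CPM after 3 h, against 163, 190.5 and 221 CPM after 2 h (log2 -1.07, SE 0.19, adjusted p = 0.00908), a call lost without PEG 2 h C (adjusted p = 0.0980) or PEG 3 h A (0.0824). NIA1, a nitrate reductase, was called lower at 3 h (log2 -0.94, adjusted p = 0.0434), but not with any single PEG 2 h or PEG 3 h library left out (0.107 to 0.281), and AT2G26440, annotated in the invertase and pectin methylesterase inhibitor superfamily, was lower (log2 -2.09, adjusted p = 0.00956), but not without PEG 2 h A (0.0504), PEG 2 h C (0.0533), PEG 3 h B (0.0895) or PEG 3 h C (0.0529). Among protective protein genes 8 of 20 were higher at 3 h than at 2 h and 0 lower (median log2 1.08). Among sulfur genes none of 9 was called (median log2 -0.04), nor any of 6 NAC genes (0.62).

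**Figure D4:**
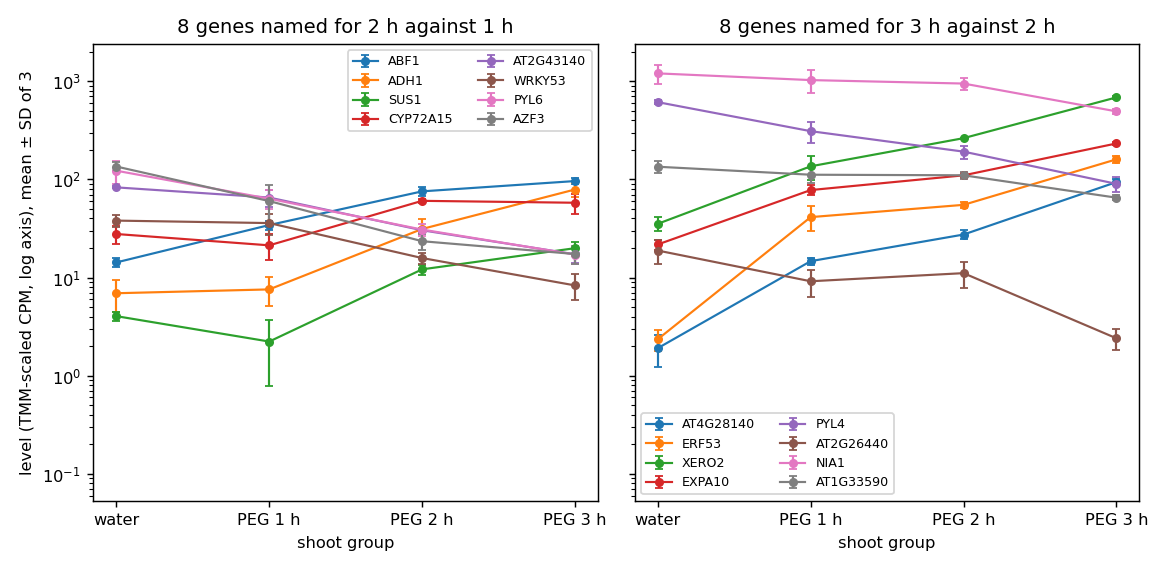
Mean level ± SD of 3 libraries (y axis, TMM-scaled CPM on a log axis) in shoot water and after 1, 2 and 3 h of PEG for the genes named in the steps between times. ADH1 and SUS1 are higher at 2 h than at 1 h and in water, and AT4G28140, ERF53 and XERO2 are higher at 3 h than at 2 h.

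The change in shoot was last set against the change in root over the same 2 h, as a difference of changes in a fit of all 24 libraries, whose scaling gives slightly other shoot levels than the shoot fit. Of 10967 genes tested, 132 (1.2%) were called, 105 (0.957%) with the shoot change above the root change and 27 (0.246%) below it, and the median difference over all genes was -0.06, or -0.19 with library totals. Of the 105, 102 were called as risen in shoot and 3 as risen in root. Falls in root were called in 2, AT2G43590 and AT4G18650, chosen after their values were seen. Of the 27, 18 were called as fallen in shoot and 3 as risen in root. Over all 10967 genes this fit called 401 higher and 153 lower in shoot, and the share called in root was not counted. The difference and the shoot change rest on the same shoot libraries. The shoot counts among these genes thus follow largely from how the genes were picked and are no further evidence. HVA22D, of a family of ABA- and stress-induced membrane proteins, stood at 355, 337 and 377 CPM in shoot PEG 2 h against 57.6, 49.7 and 85.3 CPM in shoot water, and at 158, 107 and 109 CPM in root PEG 2 h against 139, 210.2 and 131 CPM in root water (shoot log2 2.46, root log2 -0.36, difference 2.83, SE 0.32, adjusted p = 3.24e-05). ELF4 stood at 216, 199 and 197 CPM in shoot PEG 2 h against 11.4, 20.4 and 17.0 CPM in shoot water, and at 57.5, 88.5 and 76.2 CPM in root PEG 2 h against 64.2, 24.7 and 65.4 CPM in root water (shoot log2 3.66, root log2 0.51, difference 3.15, SE 0.42, adjusted p = 0.000184). AT1G51090, annotated as a heavy metal transport or detoxification protein, stood at 131, 162 and 146 CPM in shoot PEG 2 h against 11.9, 19.8 and 16.2 CPM in shoot water, and at 5.75, 4.43 and 5.35 CPM in root PEG 2 h against 7.97, 3.89 and 9.57 CPM in root water (shoot log2 3.22, root log2 -0.53, difference 3.75, SE 0.43, adjusted p = 3.24e-05). In these 3 the shoot groups did not overlap while the root groups did. Over the genes of this fit all PEG 2 h libraries lay above all water libraries in 13.1% and below them in 9.9% in shoot, and in 7.54% and 5.96% in root. AT2G39980, annotated as an acyltransferase and overlapped by an opposite-strand gene, was another, at shoot log2 2.25 and root log2 -1.20 (difference 3.45, adjusted p = 0.000184). Its root change was not called (adjusted p = 0.0900). Below the root change lay HRA1, at 2.34, 2.34 and 1.43 CPM in shoot PEG 2 h against 14.0, 7.49 and 10.7 CPM in shoot water, and at 10.7, 9.97 and 10.7 CPM in root PEG 2 h against 5.73, 2.60 and 5.85 CPM in root water (shoot log2 -2.37, root log2 1.08, difference -3.45, SE 0.57, adjusted p = 0.00111). For HRA1 neither organ's groups overlapped, and they lay in opposite orders, but the root change was not called (adjusted p = 0.223). MYB70 lay at shoot log2 -2.27 and root log2 -0.09 (difference -2.19, adjusted p = 0.00125), EXO at -2.80 and -0.83 (difference -1.97, adjusted p = 0.00180) and EXL5 at -1.38 and 0.33 (difference -1.71, adjusted p = 0.00247). By list, the shoot change was above the root change in 3 of 6 NAC genes, 4 of 9 evening clock genes, 3 of 9 sulfur genes, 3 of 12 DREB and CBF genes and 4 of 20 protective protein genes, with 0 below in each. Other lists went the other way. Below the root change lay 2 of 6 EXORDIUM genes (1 above), 2 of 7 low-oxygen regulators (0 above) and 2 of 13 ERF factors (1 above). ABA receptors, HD-Zip factors and phenylpropanoid genes each had 1 below and 0 above, and the zinc-finger list 1 each way. The count of 132 was 64 without shoot water A, 70 without shoot water B, 82, 85 and 76 without shoot PEG 2 h A, B and C, 78 without root water A, 83 without root PEG 2 h B and 85 without root PEG 2 h C.

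**Figure D5:**
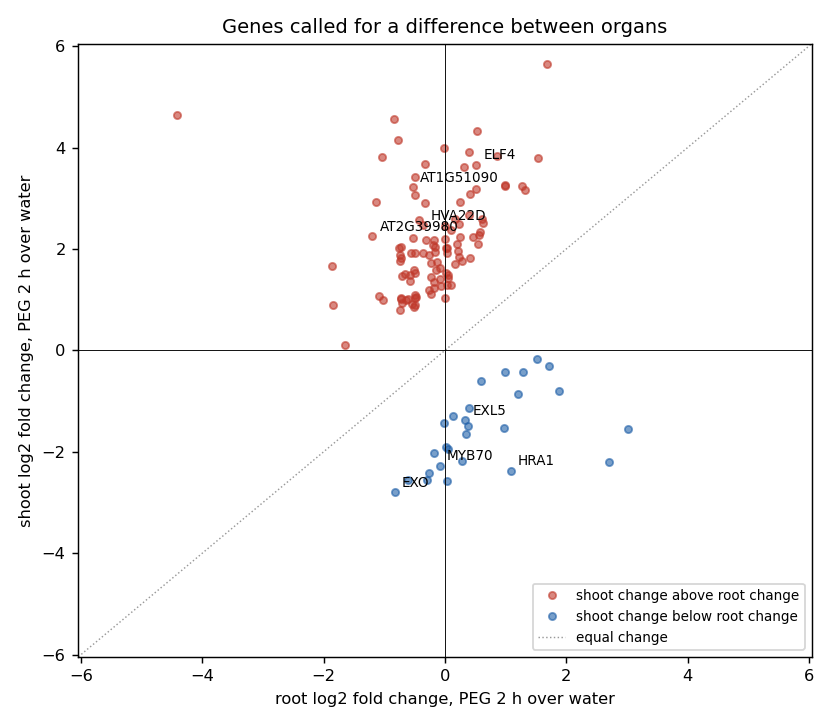
Log2 fold change, PEG 2 h over water, in shoot (y axis) and in root (x axis) for the 132 genes called for a difference between organs, red where the shoot change is above and blue where it is below the root change, with a dotted line of equal change. Of the 105 red points 102 are genes called as risen in shoot, a call that rests on the same shoot libraries as the difference. The point farthest left is AT4G18650, with 94 counts in PEG 2 h and 2 in water in shoot.

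The authors' deposited table compares the same groups, with its log2 run as water over PEG. At an adjusted p under 0.05 and an absolute log2 of at least 1, the authors' deposited table holds 462 genes, 323 higher and 139 lower in PEG 2 h. The like count here is 625 (6.79%). Of the 462, 448 were tested here, all 448 with the same sign, and 445 are called here; as both start from the same counts, this is no independent support.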

How the data were processed

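Per the submitters' processing notes the tools were HTSeq, STAR (2.4.2a), cutadapt, bcl2fastq and DESeq2, listed in no order. The sources used here give neither the genome build and annotation nor the strand counted nor the treatment of molecular identifiers. The deposited table holds raw read counts per gene and library, whole numbers per the file headers and values. It also holds the authors' log2 fold changes and adjusted p-values for each comparison, of which a few counts are quoted by name, and 48 per-sample columns that were not used.

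Counts of 14557 genes were analysed in R 4.3.3 with edgeR 4.0.16 (filterByExpr, TMM scaling, robust quasi-likelihood F test, two-sided, Benjamini-Hochberg over all genes tested). The shoot contrasts came from 1 fit of 12 libraries and the organ difference from 1 fit of 24, each without covariates. Gene names, products and overlaps came from the RefSeq table of TAIR10.1, which matched 14457 genes. Of the 100 others 67 are chloroplast and 33 mitochondrial codes. Groups followed the source names. In every shoot group the replicates differed by more than sampling noise. Replicates are separate batches of seedlings as far as the labels say. Intervals and floors cover counting error only.

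The question, the 49 gene lists and the tests were chosen with earlier results of these data known. The naming rule took the 10 largest called rises and falls (mean count 20 or more, groups that did not overlap), from each list the 2 genes of lowest adjusted p, and for the other comparisons 4 genes in each direction. Other genes are examples chosen after their values were seen. Alternatives were library totals, DESeq2 1.42.0, other count filters, a replicate block, other sets of libraries, a fold threshold and each library left out. The fit was tested on simulated data. Genes with a true log2 of 1 were called in 51.0% of cases and those at -1 in 44.7%. At a true log2 of 2 and -2 the shares were 96% and 87.8%, and among unchanged genes 0.116%. A gene that is not called may therefore still have changed.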

Additional observations from a re-analysis of the deposited data

Results flagged for a closer look

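The shoot and root changes after 2 h of PEG differed in 132 of 10967 genes by the interaction term of edgeR's quasi-likelihood test, and the 8 genes named from them are listed here for that reason. Differences are the shoot log2 change minus the root log2 change. Those above 0 were 2.83 for the stress-induced membrane protein gene HVA22D, 3.75 for AT1G51090, 3.15 for the clock gene ELF4 and 3.45 for AT2G39980. Those below 0 were -3.45 for the hypoxia attenuator HRA1, -2.19 for the transcription factor MYB70, -1.97 for the wall protein gene EXO and -1.71 for its relative EXL5. Shoot log2 changes for the genes below 0 were -2.37, -2.27, -2.80 and -1.38, and root log2 changes 1.08, -0.09, -0.83 and 0.33. None of these root changes was called by the same test (adjusted p = 0.105 to 0.938). Root replicates varied more than shoot replicates: the count chi-square per degree of freedom between replicates was 4.71 to 34.9 in root PEG 2 h and water and 2.54 to 16.7 in the shoot groups.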

How the results depend on the processing

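The 987 genes called for 2 h of PEG against water changed by less than 1.5 times under library totals (996), DESeq2 (909), other filters (985 and 918), the 6 libraries alone (1031) and every left-out library (712 to 847; higher 515 to 590). Lower calls ran from 169 to 269. The fit of all 24 libraries gave 554 (401 higher, 153 lower), and an absolute log2 of at least 1 gave 625 (170 lower). Genes called between 2 h and 1 h, 156, became 449 with library totals, 342 with DESeq2, 261 without a filter, 44 with a replicate block and 18 to 303 without single libraries. Between 3 h and 2 h, 39 became 71 with DESeq2, 294 with the 6 libraries alone and 18 to 28 without single libraries. The organ difference gave 64 to 121 without single libraries. The causes were not tested. For 124 called gene results, 1624 recomputed values gave 1503 with the same call, 121 not called and 0 of opposite sign. Of the 101 such results for PEG 2 h against water, 26 were not called in the fit of all 24 libraries. Not all of those losses are given beside the genes. The uncalled genes LOX1 (-0.31 to 0.20), ARR4 (-1.05 to 0.44) and SCR (-0.74 to 0.048) changed sign when single libraries were left out, LOX1 to 0.20 without water A and 0.01 without PEG 2 h B, ARR4 to 0.44 and SCR to 0.048 without water A.

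Replicate letters did not pair the libraries: deviations of same-lettered PEG 2 h and water libraries correlated at -0.0750, -0.112 and -0.211, and 0 of 12 libraries matched their own letter best. The fit with the replicate block called 865 genes (615 higher, 250 lower). Among the calls the block ended were PYL1 (adjusted p = 0.0792), RAB18 (0.0845), EXL2 (0.0876) and SEX1 (0.0583). The shallowest water library holds 1692884 counts, and the effect of depth on the calls was not tested.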

Other observations

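Several gene groups not described above had few or mixed calls. Among SAUR genes, small auxin-induced growth genes, 7 of 78 had enough counts to be tested, 4 rose and 2 fell (median log2 1.54). AT4G12410 and AT4G22620 rose (log2 2.95 and 3.61) and AT1G56150 fell (log2 -1.68), and those calls were kept without any single library. The other rises and the other fall were not, and the upward count was 2 to 4. Nitrate uptake and assimilation genes had 0 of 8 called upward and 1 downward (median log2 -0.39), the transceptor NRT1.1 (log2 -0.88, adjusted p = 0.000364 by edgeR). The nitrite reductase NIR1 was not called (log2 -0.43, adjusted p = 0.0545), but was by DESeq2 (0.00372), with a filter at a mean count of 20 (0.0238) and without water C (0.0399). Of 11 phenylpropanoid genes PAL2, which opens the pathway, was the one called (log2 0.82, adjusted p = 0.001). Of 6 dark and low-sugar genes 2 rose, or 1 to 2 with single libraries left out. DYL1, a dormancy-associated gene, was one (log2 1.12, adjusted p = 0.000172). The other call was not made by DESeq2 (adjusted p = 0.0592), in the fit of all 24 libraries (0.310) or without most of the single libraries.

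Jasmonate repressors and outputs had 3 of 12 called upward and 1 downward (median log2 0.32). JAZ2 was at log2 1.35, MYC2 at log2 0.83 and JAZ12 at log2 0.57, and each of these calls was lost without at least 1 library, as was that of CYP94B3 (log2 -0.78), which was lost without PEG 2 h A (adjusted p = 0.0520). JAZ2 was lost without water B (0.0549) or PEG 2 h A (0.0660), MYC2 without water A (0.139), PEG 2 h B (0.0825) or PEG 2 h C (0.0726), and JAZ12 without water A (0.130), water B (0.0520) or PEG 2 h B (0.139). The fit of all 24 libraries called none of JAZ2 (adjusted p = 0.0822), MYC2 (0.628), JAZ12 (0.408) and CYP94B3 (0.0915). Heat shock genes had 1 of 8 called upward, antioxidant enzymes and oxidases 1 of 10 downward, type-A response regulators 1 of 2 upward, root cell type markers 1 of 4 downward and cuticular wax genes 0 of 8. The single calls, HSFA3, RBOHD, ARR8 and PHT1;1, had adjusted p of 0.0352, 0.0400, 0.0419 and 0.0347. Each was lost without most of the single libraries: without PEG 2 h B the adjusted p were 0.157, 0.0618, 0.0894 and 0.0590, and without water A 0.195, 0.161, 0.133 and 0.0847.

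Further cell wall genes, chosen after their values were seen, lay below water. FLA9, a fasciclin-like arabinogalactan protein, stood at 260, 267 and 274 CPM in the PEG 2 h libraries, against 743, 1027 and 814 CPM in the water libraries (log2 -1.69). ENODL8, an early nodulin-like protein, stood at 9.92, 10.1 and 12.6 CPM in the PEG 2 h libraries, against 42.9, 42.0 and 40.5 CPM in the water libraries (log2 -1.95). No PEG 2 h library of either gene came near a water library.

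Other genes chosen after their values were seen lay above water. The cytochrome P450 gene CYP81D11 stood at 32.4, 19.2 and 28.1 CPM in the PEG 2 h libraries, against 1.49, 1.78 and 1.91 CPM in the water libraries (log2 3.93). The glucosyltransferase gene UGT73C1 stood at 14.4, 9.46 and 10.7 CPM in the PEG 2 h libraries, against 0.745, 1.18 and 0.319 CPM in the water libraries (log2 4.06). The kelch-repeat gene AT2G44130 stood at 91.5, 111 and 94.1 CPM in the PEG 2 h libraries, against 5.96, 6.51 and 8.29 CPM in the water libraries (log2 3.81). In CYP81D11, UGT73C1 and AT2G44130 every PEG 2 h library lay above every water library. The root log2 change of AT2G44130 was 1.53. CYP81D11, AT2G44130 and ENODL8 overlap opposite-strand genes, and the counted strand is unknown here. AT1G70640, annotated with a PB1 domain, had 108 counts over the PEG 2 h libraries and 1 over the water libraries, a ratio of 62.9 (95% counting interval 11.1 to 2509).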
